A study of Homo sapiens with 30 samples.

Results

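The genes described here are 9 long non-coding RNAs (lncRNAs) that have been linked to p53: LNCTAM34A, MIR34AHG, PVT1, TP53TG1, NEAT1, MALAT1, MIR22HG, LINC-PINT and PURPL. They were taken by name and matched by Ensembl identifier to the table of raw counts, where all 9 were found among 39359 genes. 8 of the 9 passed the filter on low counts and were tested together with 21335 genes in all. LNCTAM34A passed it only through libraries from cells with functional p53, and PURPL did not pass.

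The cells were H1299, a human lung carcinoma line that lacks p53, at passages 7 to 12. They were transiently transfected with pGFP, which expresses GFP alone, or with a vector that expresses GFP and p53 from separate TRE-tight promoters. The p53 was wild type p53, RW mutant p53, which is altered at codon 248, or came from the p53 O6-meG vector, which carries O6-methylguanine on the template strand of that codon. In the p53 TM group (TM stands for transcriptional mutagenesis) the cells carried the p53 O6-meG vector and had received 10 µM O6-benzylguanine (O6-bzG), which inactivates the repair protein AGT. No other vector was combined with O6-bzG, so an effect of O6-bzG itself and an effect of the unrepaired lesion cannot be told apart. GFP-positive cells were sorted at 6 h or 24 h after transfection, and RNA from biological triplicates gave 30 libraries. Every group thus shares the line, the transfection and the GFP sort, and p53 is present only in cells that took up a vector.

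The labels of 2 libraries at 6 h contradict themselves. Both are replicate 2, and the first part of each title names p53 O6-meG where the genotype names p53 TM, or the reverse. They were therefore placed in no group, which leaves 28 libraries in 10 groups: 3 libraries a group, but 2 for p53 O6-meG and 2 for p53 TM at 6 h. For the main tests at 6 h that rest on either group, results with the pair of libraries placed by the labels are also given. Percents of the wild type rise and count ratios of transcripts at 6 h use the assigned libraries only.

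Library totals over all genes ran from 32302699 to 71950532 counts. Levels are given as CPM (counts-per-million of the library, with TMM factors). Markers of differentiated lung epithelium summed to 0.28 to 1.93 CPM over 5 genes, with SFTPB, SFTPC and SCGB1A1 each below 0.1 CPM on average. Mesenchymal markers summed to 2024 to 3663 CPM and epithelial markers to 383 to 901 CPM, with CDH1 below 0.1 CPM. Immune markers (3 of 4 were measured) summed to 0.35 to 2.37 CPM and endothelial markers to 0.0902 to 1.65 CPM.

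p53 is a transcription factor that binds response elements in DNA and raises the transcription of genes that arrest the cell cycle, repair DNA or lead to apoptosis. Some of its targets are not translated. They act as hosts of microRNAs, as scaffolds in the nucleus or as feedback regulators of p53 itself. MIR34AHG is the host transcript of miR-34a, a microRNA that represses mRNAs of cell cycle and survival proteins, and LNCTAM34A is transcribed from the opposite strand of the same locus.

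The sequences shown first belong to that locus and to 2 other members. The mature microRNAs of the host genes MIR34AHG and MIR22HG are printed from RefSeq (GRCh38.p14), in the 5′ to 3′ direction, with the seed (bases 2 to 8) in capitals, since they are the known products of these transcripts. miR-34a-5p lies at chr1:9151735-9151756 and miR-34a-3p at chr1:9151693-9151714, both on the minus strand within the exon at the 3′ end of MIR34AHG (GENCODE v44), and miR-22-3p lies at chr17:1713914-1713935 on the minus strand within an exon of MIR22HG. The 3 seeds differ from each other. Mature microRNAs were not measured.
hsa-miR-34a-5p: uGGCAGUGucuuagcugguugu
hsa-miR-34a-3p: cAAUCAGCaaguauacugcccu
hsa-miR-22-3p: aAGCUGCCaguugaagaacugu

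The promoter windows of LNCTAM34A and PURPL are shown because their transcripts were at or close to 0 counts in every library without functional p53, and because these windows held a match to the p53 response element. Windows of 300 bases, from 250 before to 50 after each RefSeq start (GRCh38.p14), were searched on both strands for the p53 decamer consensus and for pairs of decamers at most 13 bases apart. Of 35116 such windows in the genome, 2329 (6.63%) held at least 1 decamer and 10 (0.0285%) held a pair. The LNCTAM34A window at chr1:9181954-9182253 on the plus strand held a pair with no spacer at chr1:9182144-9182163, 60 bases before the RefSeq start. The PURPL window at chr5:27472042-27472341 on the plus strand held a pair with no spacer at chr5:27472165-27472184, 127 bases before the RefSeq start. GENCODE v44 sets other starts: both pairs lie inside its gene spans (chr1:9182004-9196284 for LNCTAM34A, chr5:27217714-27497871 for PURPL). Capitals mark the pairs. The windows of MIR34AHG, MALAT1, LINC-PINT, MIR22HG and TP53TG1 held no match, which says only that these letters are not in these 300 bases. The MIR34AHG window (chr1:9182289-9182588, minus strand) ends short of the pair at chr1:9182144-9182163. That pair lies downstream of the MIR34AHG start and outside the bases searched for it. PVT1 and NEAT1 were not searched. A match is a description of the sequence and does not show that p53 bound there.
LNCTAM34A promoter: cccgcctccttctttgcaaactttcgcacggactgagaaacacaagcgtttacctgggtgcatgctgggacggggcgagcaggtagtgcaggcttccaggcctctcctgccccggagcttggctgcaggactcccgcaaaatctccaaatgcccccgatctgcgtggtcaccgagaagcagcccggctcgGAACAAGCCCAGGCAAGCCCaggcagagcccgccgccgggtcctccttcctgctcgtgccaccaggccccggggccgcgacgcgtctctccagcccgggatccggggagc
PURPL promoter: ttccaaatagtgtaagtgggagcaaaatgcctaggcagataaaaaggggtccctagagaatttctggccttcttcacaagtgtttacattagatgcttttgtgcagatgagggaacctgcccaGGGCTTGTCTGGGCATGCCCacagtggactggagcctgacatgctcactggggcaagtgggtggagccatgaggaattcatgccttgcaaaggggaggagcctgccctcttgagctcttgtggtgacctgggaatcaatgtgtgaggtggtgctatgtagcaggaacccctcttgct

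What does wild type p53 do to these transcripts in cells that otherwise lack p53? With wild type p53 the pair of transcripts of the miR-34a locus went from almost no reads to clear expression within 6 h, and TP53TG1 rose above 2-fold. PVT1 rose by less than 2-fold at 6 h and by about 3-fold at 24 h, and NEAT1 was higher at 24 h only. MALAT1 and LINC-PINT did not pass the test at either time. A gene was called against pGFP when its adjusted p was below 0.05 and its change at least 2-fold, the limit used by the study. By this rule 3 of the 8 tested lncRNAs were called at 6 h, all higher, beside 4.39% of all genes that were called higher, and 4 of 8 at 24 h, all higher, beside 9.22%. LNCTAM34A is among them at both times. It passed the filter only through libraries with functional p53 and shares a locus with MIR34AHG, so its call adds nothing beside these shares. The median log2 fold change of the 8 was 0.43 at 6 h and 1.07 at 24 h, against 0.0211 and 0.00809 over all genes. These medians include LNCTAM34A and carry the same limit. With it left out the middle value was that of NEAT1, 0.41 at 6 h and 0.77 at 24 h. Adjusted p values come from the quasi-likelihood test of edgeR, adjusted by the Benjamini-Hochberg method over all genes tested. In pooled RNA of sorted cells, more cells that express a transcript and more RNA per cell cannot be told apart.

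MIR34AHG (ENSG00000228526, chr1:9148011-9198906, minus strand, hg38) had levels of 0.101, 0.0874 and 0.0871 CPM with pGFP at 6 h. With wild type p53 at 6 h it had 33.0, 29.7 and 34.6 CPM. Every wild type library was far above every pGFP library. The ratio of the group sums was 357 (95% counting interval 213 to 654, 5060 counts against 14, adjusted p = 7.7e-13 by edgeR). At 24 h the levels were 0.451, 0.204 and 0.161 CPM with pGFP and 29.2, 19.1 and 16.6 CPM with wild type p53. The groups again lay far apart, with a ratio of 81.4 (57.8 to 118, adjusted p = 6.5e-12 by edgeR). The counting intervals cover counting error only.

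LNCTAM34A (ENSG00000234546, chr1:9182004-9196284, plus strand, hg38), whose product is known to favour expression of the miR-34a host, had 0 counts in all 3 pGFP libraries at 6 h. With wild type p53 at 6 h its levels were 1.83, 1.43 and 1.96 CPM (adjusted p = 1.7e-09 by edgeR). They were 90.2-fold higher when the pGFP group is set to a floor of 3 counts over the group. That value leaves out the counting error of the wild type group. At 24 h it stood at 0.0531, 0 and 0.0459 CPM with pGFP and at 3.00, 2.67 and 2.40 CPM with wild type p53, a ratio of 84.1 (32.5 to 310, adjusted p = 5.6e-10 by edgeR) that rests on 4 counts in the pGFP group. The transcript thus went from absent or nearly so to detected in every wild type library. The gene lies inside the span of MIR34AHG, and 431 exon bases overlap on opposite strands, which is 20.1% of its exon bases and 5.0% of those of MIR34AHG (GENCODE v44). The strand setting of the authors' counting is not stated, so reads over the shared bases are of uncertain origin.

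TP53TG1 (ENSG00000182165, chr7:87322943-87345560, minus strand, hg38), a lncRNA first found as a transcript raised by p53, had levels of 5.23, 4.76 and 5.16 CPM with pGFP and 12.2, 13.5 and 12.5 CPM with wild type p53 at 6 h. At 24 h the values were 9.27, 8.56 and 7.96 CPM with pGFP and 24.0, 24.1 and 18.5 CPM with wild type p53. At both times the lowest wild type library was above the highest pGFP library. The log2 fold change was 1.33 at 6 h (SE 0.12, adjusted p = 7.4e-09 by edgeR) and 1.37 at 24 h (SE 0.12, adjusted p = 9.5e-10). The difference between these changes was 0.04 on the log2 scale (SE 0.17, adjusted p = 0.95).

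PVT1 (ENSG00000249859, on chromosome 8 beside MYC), known to stabilise the MYC protein and to carry a p53 response element, had levels of 17.5, 18.3 and 17.1 CPM with pGFP at 6 h and 23.8, 23.6 and 25.2 CPM with wild type p53. The groups did not overlap, but the log2 fold change of 0.45 (SE 0.11, adjusted p = 0.0067 by edgeR) was below the 2-fold limit, and its adjusted p was 0.08 with the contradictory libraries placed by genotype. At 24 h it stood at 9.88, 12.1 and 13 CPM with pGFP and at 41.8, 36.8 and 33.3 CPM with wild type p53. The separation was wider here, with a log2 fold change of 1.68 (SE 0.12, adjusted p = 3.2e-11). PVT1 was the only lncRNA of the 8 whose response to wild type p53 differed between the times by the test of that difference (1.22 on the log2 scale, SE 0.16, adjusted p = 1.1e-04), where 6.51% of all genes passed. For MIR34AHG that difference was −2.08 (SE 0.85, adjusted p = 0.16), with an adjusted p = 0.0032 with the replicate block and 0.037 by DESeq2, and it rests on 14 and 33 counts in the pGFP groups. With pGFP itself, PVT1 fell by 0.60 on the log2 scale from 6 h to 24 h with pGFP (SE 0.11, adjusted p = 1.8e-04), while TP53TG1 rose by 0.77 (SE 0.12, adjusted p = 1.8e-05). These were the 2 lncRNAs of 8 that changed over time with pGFP, where 41.2% of all genes did. Epithelial markers in pGFP libraries summed to 711 to 797 CPM at 6 h and to 421 to 520 CPM at 24 h; their part in the change over time was not tested.

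**Figure D1:**
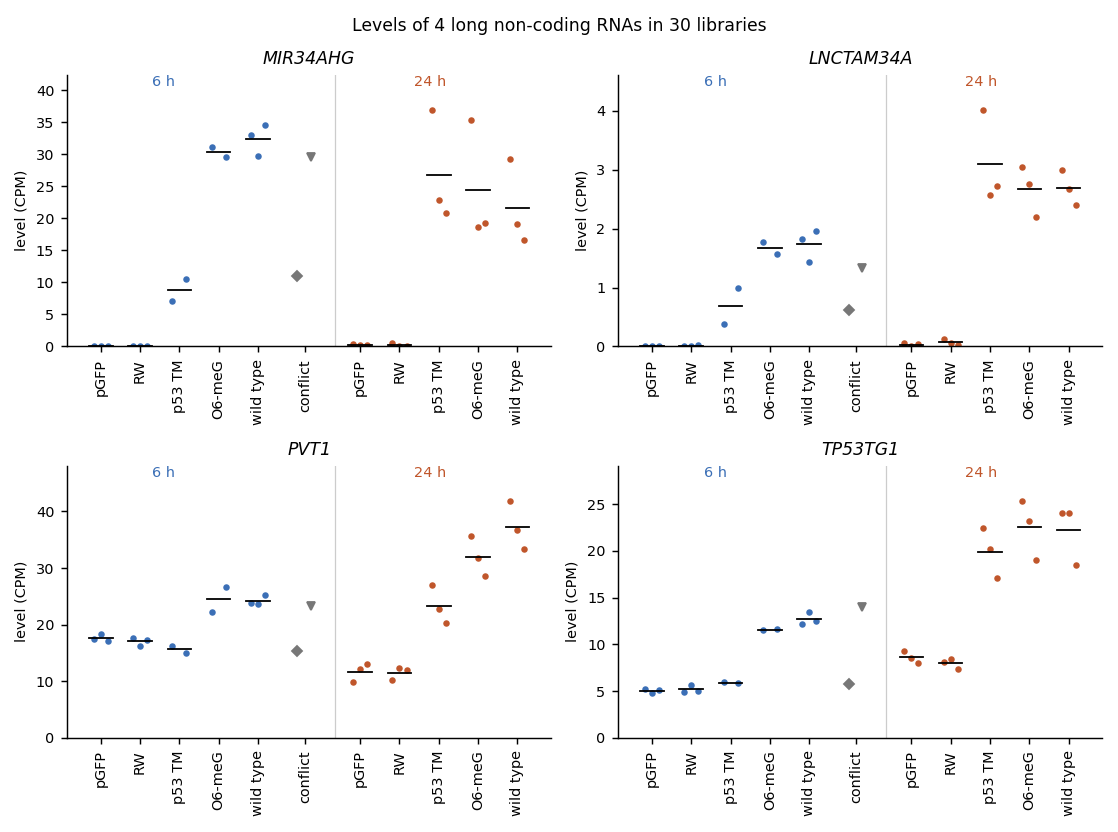
Level of MIR34AHG, LNCTAM34A, PVT1 and TP53TG1 (y axis, CPM on a linear scale) by group and time (x axis); each point is 1 library, black lines are group means, and grey symbols are the 2 libraries with contradictory labels (diamond, genotype p53 O6-meG and title p53 TM; triangle, genotype p53 TM and title p53 O6-meG). MIR34AHG is at 29.7 to 34.6 CPM with wild type p53 at 6 h against 7.03 and 10.6 CPM with p53 TM, while at 24 h p53 TM (20.8 to 36.9 CPM) overlaps wild type p53 (16.6 to 29.2 CPM).

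NEAT1 (ENSG00000245532, chr11:65422774-65445540, plus strand, hg38), the RNA scaffold of nuclear paraspeckles, had levels of 130, 130 and 170 CPM with pGFP and 187, 151 and 234 CPM with wild type p53 at 6 h. These groups overlapped, and the log2 fold change of 0.41 did not pass (SE 0.20, adjusted p = 0.27 by edgeR). At 24 h it stood at 164, 186 and 162 CPM with pGFP and at 237, 307 and 331 CPM with wild type p53. All 3 wild type libraries were higher, by 0.77 on the log2 scale (SE 0.20, adjusted p = 0.0041), which is below 2-fold.

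MALAT1 (ENSG00000251562, chr11:65497640-65508073, plus strand, hg38), an abundant RNA of nuclear speckles that lies next to NEAT1, took 0.198% to 0.516% of all counts in a library. At 24 h it stood at 2420, 3197 and 2612 CPM with pGFP and at 2796, 3036 and 3949 CPM with wild type p53. The groups overlapped, with a log2 fold change of 0.25 (95% interval −0.25 to 0.75, adjusted p = 0.5 by edgeR). At 6 h its spread within groups was wide: RW mutant p53 had 4888, 2248 and 5026 CPM, and p53 TM had 2158 and 5369 CPM. The levels of NEAT1 in the same libraries were 163, 91.9 and 168 CPM with RW mutant p53 and 106 and 191 CPM with p53 TM, so the low library of each group was low for both of these nuclear RNAs.

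MIR22HG (ENSG00000186594, chr17:1711447-1717174, minus strand, hg38), the host of miR-22, stood at 12.1, 11.5 and 10.3 CPM with pGFP and at 14.2, 14.1 and 13 CPM with wild type p53 at 24 h. All 3 wild type libraries were higher, but the log2 fold change of 0.28 (SE 0.12) had an adjusted p = 0.067 by edgeR, and 0.018 with the replicate number as a block. LINC-PINT (ENSG00000231721, chr7:130791264-131110176, minus strand, hg38), a p53-induced transcript known to interact with Polycomb repressive complex PRC2, stood at 8.68, 8.81 and 6.73 CPM with pGFP and at 5.82, 7.10 and 7.83 CPM with wild type p53 at 24 h. Its groups overlapped, with a log2 fold change of −0.22 (95% interval −0.44 to −0.00, adjusted p = 0.14).

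PURPL (ENSG00000250337, chr5:27217714-27497871, plus strand, hg38), known to bind MYBBP1A and to hold p53 levels down, had 0 counts in all 12 libraries with pGFP or RW mutant p53. With wild type p53 it had 1, 0 and 1 counts at 6 h and 4, 3 and 2 counts at 24 h. At 24 h p53 O6-meG gave 5, 2 and 3 counts and p53 TM 6, 2 and 4 counts. Each of these 9 libraries at 24 h thus held at least 2 counts and no pGFP library held any. Against a floor of 3 counts over the pGFP group, the level at 24 h was 2.92-fold higher for wild type p53, 3.6-fold for p53 O6-meG and 3.63-fold for p53 TM. These values leave out the counting error of the 9, 10 and 12 counts in the groups, so they are not lower limits. PURPL was not tested, and the libraries hold too few counts to compare the 3 groups with each other.

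**Figure D2:**
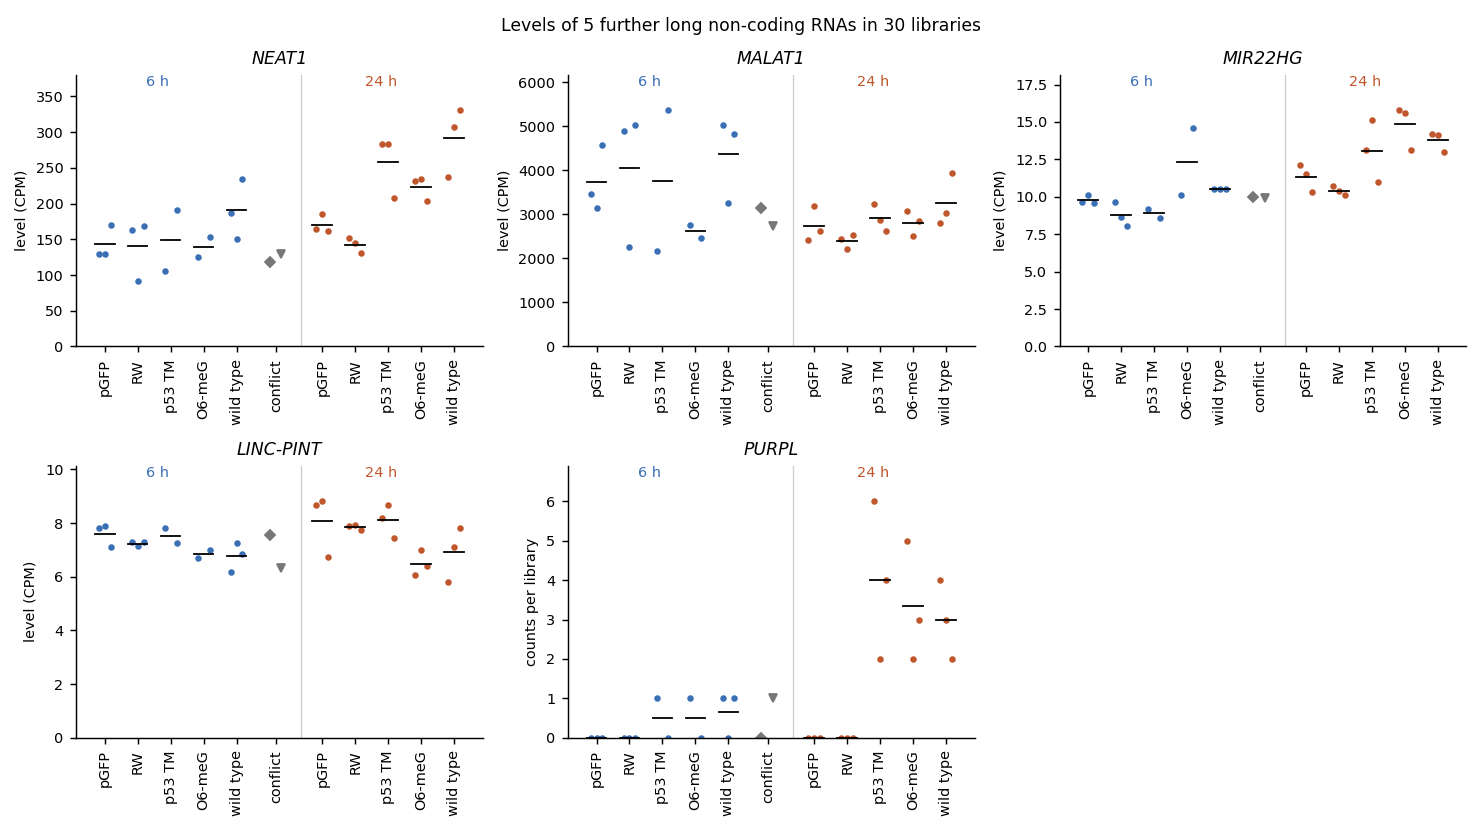
Level of NEAT1, MALAT1, MIR22HG and LINC-PINT (y axis, CPM on a linear scale) and counts of PURPL (y axis, counts per library) by group and time (x axis); each point is 1 library, black lines are group means, and grey symbols are the 2 libraries with contradictory labels. NEAT1 is highest with wild type p53 at 24 h (237 to 331 CPM), MALAT1 overlaps between groups at 24 h, and PURPL is at 0 in every pGFP and RW mutant library.

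RW mutant p53 asks whether the same vector raises these transcripts when p53 is altered in its DNA-binding domain. None of the 8 lncRNAs passed the test with RW mutant p53 at either time, by edgeR, at an unadjusted p under 0.05 or by DESeq2, and 0.00469% of all genes were called at each time. Of all 21335 genes, 218 at 6 h and 208 at 24 h had an unadjusted p under 0.05 by edgeR. MIR34AHG stood at 0.0797, 0.15 and 0.0590 CPM at 6 h and at 0.531, 0.141 and 0.132 CPM at 24 h. These values overlapped those of pGFP at both times, with ratios of 1.02 (0.43 to 2.37) and 1.00 (0.609 to 1.65), where the intervals cover counting error only. The 95% intervals of the edgeR fit, which include the spread between libraries, were −1.99 to 2.04 and −1.36 to 1.36 on the log2 scale. LNCTAM34A had 1 count in all at 6 h and 10 counts against 4 with pGFP at 24 h, a ratio of 2.23 (0.644 to 9.75). The log2 fold changes of PVT1 and TP53TG1 lay between −0.11 and 0.03, with 95% intervals inside −0.34 to 0.27. NEAT1 at 24 h was the 1 lncRNA whose RW libraries (152, 145 and 131 CPM) all lay below those of pGFP, beside 1.96% of all genes that did so, and its log2 fold change of −0.26 had an adjusted p = 1.

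The p53 O6-meG vector without O6-bzG asks whether the lesion matters where AGT can repair it. Here 3 of 8 lncRNAs were called against pGFP at 6 h (beside 1.98% of all genes that were called higher) and 4 of 8 at 24 h (beside 7.36%), all higher. LNCTAM34A is among them at both times, with the same limit from the filter. MIR34AHG stood at 31.1 and 29.5 CPM at 6 h and at 35.4, 18.7 and 19.3 CPM at 24 h, LNCTAM34A at 1.78 and 1.57 CPM and at 3.05, 2.75 and 2.20 CPM. TP53TG1 stood at 11.5 and 11.6 CPM at 6 h and at 25.3, 23.2 and 19 CPM at 24 h, and PVT1 at 22.3 and 26.7 CPM and at 35.6, 31.7 and 28.6 CPM. All of these lay above the pGFP libraries of their time. LINC-PINT, at 6.06, 6.98 and 6.41 CPM at 24 h, fell by 0.31 on the log2 scale (SE 0.11, adjusted p = 0.038 by edgeR) although 1 of its libraries overlapped pGFP. It did not pass without pGFP replicate 1 or 2 or p53 O6-meG replicate 1 or 3 (adjusted p = 0.086 to 0.17), or in a fit of those groups alone (0.14). MIR22HG, at 15.8, 15.6 and 13.1 CPM, rose by 0.39 (SE 0.12, adjusted p = 0.013). It did not pass without pGFP replicate 3 or p53 O6-meG replicate 1 or 2 (adjusted p = 0.053 to 0.07), in a fit of those groups alone (0.056) or with every gene of at least 1 count (0.083). NEAT1, at 231, 235 and 204 CPM, lay above all pGFP libraries of 24 h, by 0.39 (SE 0.20), with an adjusted p = 0.17 and of 0.016 with the replicate block.

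Set directly against wild type p53, none of the 8 passed with p53 O6-meG at 6 h or 24 h in the main fit or by DESeq2. In the main fit 0% and 0.00937% of all genes passed. With the replicate block, MALAT1 (−0.94, adjusted p = 0.017 by edgeR) and NEAT1 (−0.60, adjusted p = 0.021) were lower at 6 h. At an unadjusted p under 0.05 in the main fit the count was 1 at 6 h (MALAT1) and 0 at 24 h. Of all 21335 genes, 2131 and 1058 were under that limit. The log2 differences at 24 h were 0.18 for MIR34AHG (95% interval −0.32 to 0.67), −0.01 for LNCTAM34A (−0.54 to 0.52), 0.02 for TP53TG1 (−0.20 to 0.24) and −0.22 for PVT1 (−0.44 to −0.01). These intervals leave room for differences of up to 0.67 on the log2 scale. With the contradictory pair placed by genotype, the call of TP53TG1 against pGFP at 6 h was lost (log2 fold change 0.93, adjusted p = 0.089), while MIR34AHG and LNCTAM34A kept theirs. By the title the value was 1.29 (adjusted p = 1.1e-08).

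With p53 TM, the group that models transcriptional mutagenesis, the lncRNAs separated into different patterns over time. At 6 h, MIR34AHG and LNCTAM34A were the 2 of 8 called against pGFP, and they were among only 14 genes called in all (0.0656%). At 24 h 3 of 8 were called (MIR34AHG, LNCTAM34A and TP53TG1, all higher) beside 3.03% of all genes that were called higher. LNCTAM34A passed the filter only through libraries with functional p53, so its call adds nothing beside these shares at either time. The median log2 fold change of the 8 was 0.03 at 6 h and 0.80 at 24 h, against 0.0075 and 0.0186 over all genes. With LNCTAM34A left out the middle value was 0.01 (MALAT1) at 6 h and 0.60 (NEAT1) at 24 h. Against wild type p53 4 of the 8 were lower at 6 h (beside 8.14% of all genes that were lower at an adjusted p below 0.05, the limit used where p53 groups were compared), and PVT1 alone was lower at 24 h (beside 11.9%).

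MIR34AHG stood at 7.03 and 10.6 CPM with p53 TM at 6 h, above all pGFP libraries (ratio 98.4, 58.4 to 181, adjusted p = 7.5e-09 by edgeR) and below all wild type libraries. It fell by 1.87 on the log2 scale from wild type p53 (SE 0.30, adjusted p = 9.0e-05) and by 1.77 from p53 O6-meG (SE 0.32, adjusted p = 8.0e-04). At 24 h it stood at 36.9, 22.8 and 20.8 CPM, a range that overlapped wild type p53. The log2 difference from wild type p53 was then 0.31 (SE 0.25, adjusted p = 0.44), and 0.30 with an adjusted p = 0.013 with the replicate number as a block, since p53 TM was 1.26, 1.19 and 1.25 times wild type p53 in replicates 1, 2 and 3. The difference between 24 h and 6 h in the contrast of p53 TM with wild type p53, a test added after values had been seen, was 2.18 on the log2 scale (SE 0.39, adjusted p = 0.0018), where 1.45% of all genes passed.

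LNCTAM34A stood at 0.384 and 0.984 CPM with p53 TM at 6 h, 36.5-fold higher than the floor of the pGFP group (adjusted p = 2.0e-05 by edgeR) and below the lowest wild type library. It fell by 1.32 on the log2 scale from wild type p53 (SE 0.34, adjusted p = 0.011), a call that was lost without p53 TM replicate 1 (−0.83, adjusted p = 0.28). At 24 h its levels were 4.01, 2.57 and 2.72 CPM, which overlapped wild type p53, with a log2 difference of 0.20 (95% interval −0.32 to 0.72, adjusted p = 0.66). Against p53 O6-meG at 6 h the log2 difference was −1.26 (SE 0.37, adjusted p = 0.057, and 0.019 by DESeq2). The change over time in the contrast with wild type p53 was 1.52 (adjusted p = 0.088), and passed with the replicate block (adjusted p = 0.0019).

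TP53TG1 stood at 6.01 and 5.81 CPM with p53 TM at 6 h, just above the highest pGFP library of 5.23 CPM and far below the lowest wild type library of 12.2 CPM. The change against pGFP did not pass (log2 fold change 0.23, SE 0.13, adjusted p = 0.93 by edgeR), while it fell by 1.11 on the log2 scale from wild type p53 (SE 0.13, adjusted p = 2.1e-06). At 24 h it stood at 22.4, 20.2 and 17.1 CPM, above all pGFP libraries by 1.21 on the log2 scale (SE 0.12, adjusted p = 3.6e-08) and overlapping wild type p53 (−0.16, 95% interval −0.38 to 0.06, adjusted p = 0.36). The change against pGFP was 0.98 larger on the log2 scale at 24 h than at 6 h (SE 0.18, adjusted p = 0.0016), where 3.1% of all genes passed.

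PVT1 stood at 16.3 and 15.0 CPM with p53 TM at 6 h, below the lowest pGFP library of 17.1 CPM, without passing the test (log2 fold change −0.18, SE 0.13, adjusted p = 0.97 by edgeR). At 24 h its levels were 27, 22.7 and 20.3 CPM, which lay above all pGFP libraries and below all wild type and p53 O6-meG libraries. The log2 fold change against pGFP was 1.00 (SE 0.11, adjusted p = 6.8e-07), just short of the 2-fold limit, and it passed that limit when any of pGFP replicate 2 or 3 or p53 TM replicate 2 or 3 was left out (1.02 to 1.09). PVT1 was lower than with wild type p53 at both times, by −0.63 on the log2 scale at 6 h (SE 0.13, adjusted p = 0.0012) and by −0.68 at 24 h (SE 0.11, adjusted p = 1.1e-04). The difference between these contrasts was −0.05 (95% interval −0.37 to 0.28, adjusted p = 0.97). Within replicates 1, 2 and 3 at 24 h, p53 TM held 0.646, 0.618 and 0.61 of the wild type level.

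Against p53 O6-meG at 24 h, the same vector without O6-bzG, PVT1 was lower by −0.45 on the log2 scale (SE 0.11, adjusted p = 0.0095 by edgeR), the 1 call of 8 beside 6.58% of all genes that were lower. That call was lost without p53 O6-meG replicate 1 (−0.37, adjusted p = 0.059), without p53 TM replicate 3 (−0.36, adjusted p = 0.081) and in a fit of those groups alone (−0.45, adjusted p = 0.13). LINC-PINT, at 8.19, 8.68 and 7.43 CPM with p53 TM, lay above all p53 O6-meG libraries at 24 h, by 0.32 on the log2 scale (SE 0.11), with an adjusted p = 0.077 and of 0.024 with the replicate block. At 6 h 3 of 8 were lower with p53 TM than with p53 O6-meG, beside 3.37% of all genes: MIR34AHG, TP53TG1 (−0.97, SE 0.15, adjusted p = 9.2e-05) and PVT1 (−0.65, SE 0.14, adjusted p = 0.0049). The last was lost without p53 O6-meG replicate 3 (adjusted p = 0.13) or p53 TM replicate 3 (adjusted p = 0.1). NEAT1 stood at 284, 283 and 208 CPM with p53 TM at 24 h, all above pGFP, by 0.60 on the log2 scale (SE 0.20), with an adjusted p = 0.064 and of 0.0011 with the replicate block.

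**Figure D3:**
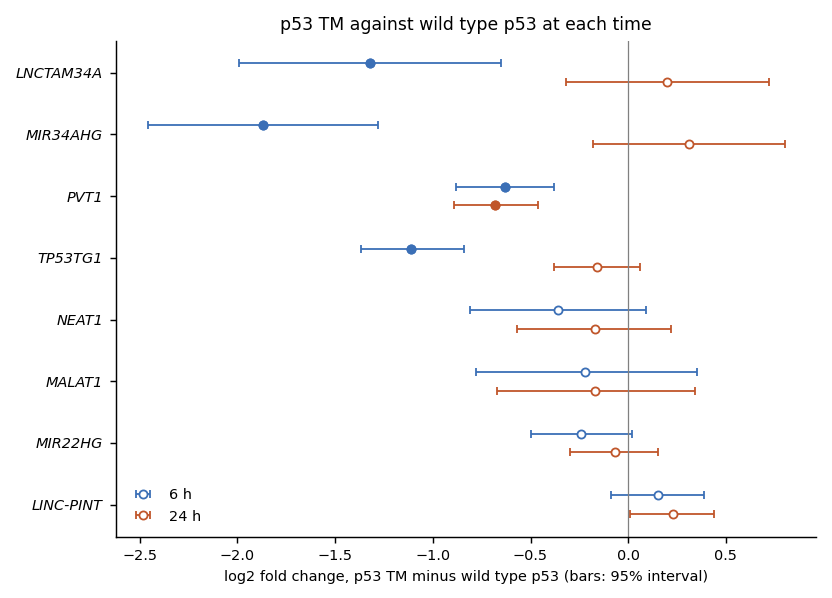
Log2 fold change of 8 lncRNAs in p53 TM relative to wild type p53 (x axis; bars are 95% intervals) at 6 h (blue) and 24 h (orange); filled points have an adjusted p below 0.05. The intervals of LNCTAM34A, MIR34AHG, PVT1 and TP53TG1 lie wholly below 0 at 6 h, and that of PVT1 alone does at 24 h, around −0.68.

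Expressed as a percent of the rise over pGFP with wild type p53, the level of MIR34AHG with p53 TM was 27% ± 7.86 (SD, n = 2) at 6 h and 124% ± 41.1 (SD, n = 3) at 24 h, and that of LNCTAM34A 39.3% ± 24.3 (SD, n = 2) and 116% ± 29.7 (SD, n = 3). For TP53TG1 the values were 11.2% ± 1.83 (SD, n = 2) and 83.2% ± 19.3 (SD, n = 3). For PVT1 they were −31.2% ± 13.9 (SD, n = 2), below the pGFP level, and 45.6% ± 13.2 (SD, n = 3). Each SD is over libraries set against group means and does not use the replicate numbers. The 2 libraries with contradictory labels are left out of these values. The library that is p53 TM by genotype stood at 91.2% for MIR34AHG, 76.4% for LNCTAM34A, 116% for TP53TG1 and 86% for PVT1. The library that is p53 TM by the first part of the title stood at 33.7%, 35.4%, 8.97% and −34.5%. The means at 6 h thus depend on the placement. Of the 4, PVT1 was furthest below the wild type level at 24 h, and the ranges over libraries at 24 h were 33.7% to 59.9% for PVT1 and 62.8% to 101% for TP53TG1.

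**Figure D4:**
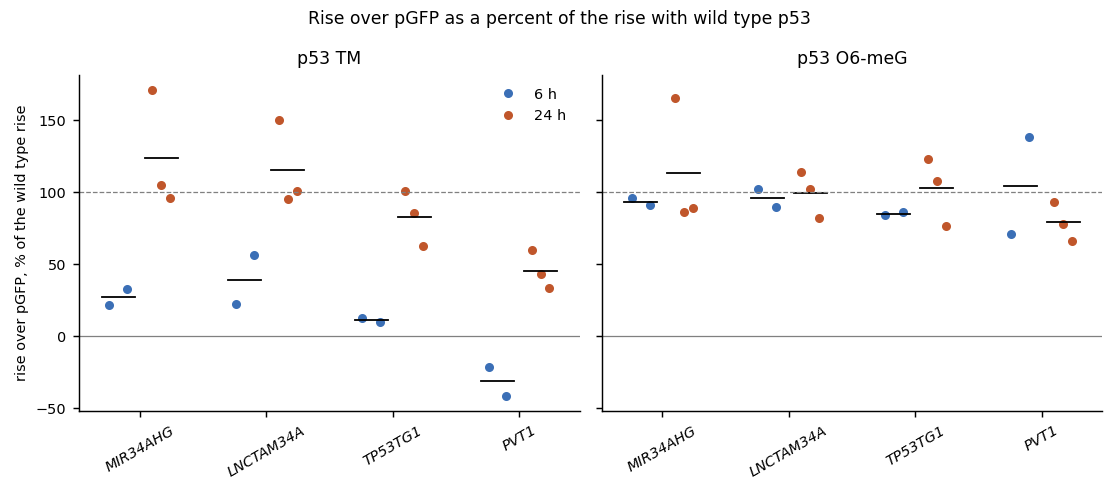
Rise over the pGFP mean as a percent of the rise with wild type p53 (y axis) for 4 lncRNAs (x axis) with p53 TM (left) and p53 O6-meG (right); each point is 1 library at 6 h (blue) or 24 h (orange), black lines are means, and the dashed line marks 100%. The 2 libraries with contradictory labels are not shown. In the assigned p53 TM libraries the means of all 4 are lower at 6 h than at 24 h, and that of PVT1 moves from −31.2% to 45.6%.

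The contradictory labels bear on every 6 h value of p53 TM and p53 O6-meG above. Placed by genotype, the pair of libraries ended all 4 calls against wild type p53 at 6 h: the log2 differences became −1.05 for MIR34AHG, −0.95 for LNCTAM34A (adjusted p = 0.17 for each), −0.41 for PVT1 (0.18) and −0.57 for TP53TG1 (0.22), all still negative. Placed by the first part of the title they were −1.76 (adjusted p = 7.7e-06), −1.37 (0.0013), −0.64 (9.0e-05) and −1.12 (7.8e-08). The calls of MIR34AHG and LNCTAM34A against pGFP at 6 h passed under both placements. The difference over time in the contrast of p53 TM with wild type p53 became 1.35 for MIR34AHG by genotype (adjusted p = 0.42). Against p53 O6-meG at 6 h the values by genotype were −0.60, −0.24 and −0.17 for MIR34AHG, PVT1 and TP53TG1 (adjusted p = 1 for each). Over all genes, p53 TM against wild type p53 at 6 h gave 2329 genes with the pair left out, 16 by genotype and 3054 by title, and p53 O6-meG against pGFP at 6 h gave 455, 53 and 543 genes.

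The genes beside the lncRNAs on the chromosome were also read. Of 14 nearest protein-coding neighbours tested, 3 were called with wild type p53 at 24 h, all higher, beside the 9.22% of all genes called higher: FRMD8, 9.2 kb from NEAT1 (log2 fold change 2.45, adjusted p = 3.7e-12 by edgeR), PODXL, 390.1 kb from LINC-PINT (3.11, adjusted p = 2.2e-10), and SERPINF2, 25.7 kb from MIR22HG (2.14, adjusted p = 8.0e-04). NEAT1, LINC-PINT and MIR22HG were themselves not called. Beside called lncRNAs, CROT lies 104 bases from the 5′ end of TP53TG1 with a log2 fold change of −0.06 (adjusted p = 0.54), and MYC, 51.6 kb from PVT1, had a log2 fold change of 0.16 (SE 0.44, adjusted p = 0.82). TMEM243, on the other side of TP53TG1, rose by 0.52 (adjusted p = 1.3e-04), below the 2-fold limit. Beside the miR-34a locus H6PD fell by 0.47 (adjusted p = 8.4e-04) and GPR157 had a change of 0.15 (adjusted p = 0.5).

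Other genes of the same biology were followed through lists. Of 9 further lncRNAs linked to p53, 4 were not analysed here, 2 (PANDAR and HOTAIR) were below the filter and 3 were tested. MEG3, an imprinted lncRNA known to activate p53, rose with wild type p53 at 24 h from 0.39 to 1.37 CPM (log2 fold change 1.80, SE 0.42, adjusted p = 0.0012 by edgeR), while GAS5 and TUG1 were not called (0.29, adjusted p = 0.0015, and −0.21, adjusted p = 0.051). The median of the 3 was 0.29 against 0.01 over all genes. Among 13 tested mRNAs known as targets of miR-34a, 1 was called lower with wild type p53 at 24 h, CCNE2 (cyclin E2, −1.55, adjusted p = 3.3e-11), and 1 higher, NOTCH1 (1.40, adjusted p = 6.0e-10). Without the 2-fold limit 1 was lower and 6 were higher, beside 14.5% and 20.5% of all genes, and the median of the list was 0.18 against 0.01 over all genes. The mRNAs for CDK4 and SIRT1, known miR-34a targets named after values were seen, had log2 fold changes of −0.00 (adjusted p = 1) and −0.14 (adjusted p = 0.38). Among 11 protein partners of the lncRNAs none was called by edgeR, and 4 were higher and 2 lower without the 2-fold limit, beside the same shares of all genes, with a median of 0.16. The largest of these was EED, a subunit of PRC2 (0.61, adjusted p = 1.1e-05), which was named after values were seen.

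The genes most like each called lncRNA were those with the smallest root mean square difference over the 8 log2 fold changes against pGFP (4 groups at 2 times, which share the pGFP libraries of their time). For PVT1 they were POLR1A (0.09), STEAP2 (0.11) and RNF128 (0.11), and for TP53TG1 DSEL (0.08), ISCU (0.10) and CES2 (0.10). No gene came as close to the pair of the miR-34a locus: for MIR34AHG the nearest were PHLDA3 (0.87), LNCTAM34A (1.04) and NHLH2 (1.43). The fold changes of that pair rest on few pGFP counts at 6 h and 24 h (14 and 33 for MIR34AHG, 0 and 4 for LNCTAM34A). The part of counting error in the larger differences was not tested. These differences are on the log2 scale and are a description of the pattern.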

How the data were processed

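Total RNA of sorted cells was sequenced as stranded, ribosomal RNA-depleted single-read libraries. Per the labels and the study's methods, the authors aligned reads to hg38 with STAR 2.5.3a and counted them on GENCODE v27 genes with featureCounts of Subread 1.5.2. The deposited values are raw counts per gene, without normalization, and the strand setting is not given in the sources used here. The authors' normalized table was not used here. Counts of 28 libraries were filtered (filterByExpr), scaled by TMM, fitted together as 10 groups and compared by the quasi-likelihood test of edgeR 4.0.16 in R 4.3.3, with Benjamini-Hochberg adjustment over 21335 genes. Levels are CPM scaled by TMM over all 30 libraries. Intervals of log2 values are 95% normal intervals from the SE, and those of ratios are exact counting intervals. Identifiers were matched to symbols for 38904 of 39359 genes.

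Alternatives were DESeq2's size factors, DESeq2 1.42.0, other filters on low counts, fits without the other groups, a replicate block, both placements of the contradictory libraries, other fold limits, and each library left out. Libraries sharing a replicate number deviated together at 24 h (30 of 30 pairs above 0.1, r = 0.182 to 0.612). At 6 h they did so more weakly (5 of 9 above 0.1, median r = 0.125, against 1 of 18 pairs with different numbers). The check at 6 h left out p53 O6-meG and p53 TM. The main fit held no replicate block, so its tests and intervals do not use this pairing, and the block was run only as an alternative. No library duplicated another of its group (chi-square per degree of freedom 5.51 to 41.9 over 26 pairs). On counts simulated for wild type p53 against pGFP at 24 h over 21335 genes, edgeR recovered 88 of 100 genes changed 4-fold and 61 of 100 changed 2-fold, with 7 false calls.

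The 9 lncRNAs and the lists of other genes were chosen with earlier results of these data known. Beyond them, genes are named by these rules: nearest tested protein-coding neighbours, the 3 genes with the most similar fold changes, and, of each list, those called with the largest change.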

Additional observations from a re-analysis of the deposited data

Results flagged for a closer look

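Differences between times were found by a test of the difference itself in 5 cases. The response of PVT1 to wild type p53 was 1.22 larger on the log2 scale at 24 h than at 6 h, and its response to p53 TM 1.17 larger. For TP53TG1 the response to p53 TM was 0.98 larger at 24 h. In the contrast of p53 TM with wild type p53, the 24 h value exceeded the 6 h value by 2.18 for MIR34AHG and by 0.95 for TP53TG1 on the log2 scale. The adjusted p values (edgeR, quasi-likelihood test) lay between 1.1e-04 and 0.0025 for the 5. With the contradictory libraries placed by genotype, the 4 that involve p53 TM no longer passed.

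The pair of libraries with contradictory labels entered no comparison and held signal above all pGFP libraries of 6 h. In the library whose genotype names p53 O6-meG and whose title begins with p53 TM, LNCTAM34A stood at 0.616 CPM, MIR34AHG at 11 CPM and TP53TG1 at 5.74 CPM. In the library whose genotype names p53 TM and whose title begins with p53 O6-meG, LNCTAM34A stood at 1.33 CPM, MIR34AHG at 29.6 CPM, PVT1 at 23.3 CPM, TP53TG1 at 14 CPM and PURPL at 0.0233 CPM, the last from 1 count. CDKN1A, a textbook target of p53 used as a check, stood at 50.2 CPM in the former and 250 CPM in the latter, against 57.9 to 65.9 CPM in the assigned p53 TM libraries and 261 to 269 CPM in the assigned p53 O6-meG libraries at 6 h. The values were not used to place either library.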

How the results depend on the processing

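No called value changed its sign under any alternative. Except for the placement by genotype, no share over all genes is set beside the counts of lncRNAs below. These counts show only how the calls depend on the processing. A minimum of 10 counts in every library removed LNCTAM34A and MIR34AHG. It left 1 lncRNA called with wild type p53 and 1 with p53 O6-meG against pGFP at 6 h, 2 and 2 at 24 h, 0 and 1 with p53 TM at 6 h and 24 h, 2 for p53 TM against wild type p53 at 6 h, and 1 for that contrast over time. With the replicate block 2 were called for p53 TM against wild type p53 at 24 h, 2 for p53 O6-meG against wild type p53 at 6 h, 5 and 2 for p53 TM against p53 O6-meG at 6 h and 24 h, and 2 for the wild type response over time, for which DESeq2 also gave 2. Within 24 h, where the numbers pair the libraries, the block changed no other call than those given in the report. At 6 h libraries of the same number deviated together more weakly. There NEAT1 also passed with the block for wild type p53 against pGFP (adjusted p = 0.03, edgeR). MALAT1 and MIR22HG passed with it for p53 O6-meG against pGFP (0.025 and 0.042). NEAT1 passed with it for p53 TM against wild type p53 (−0.54, 0.01), which makes 5 of 8. Across times NEAT1 passed with it for the p53 TM response (0.74, adjusted p = 0.017, edgeR) and MALAT1 with pGFP (−0.77, adjusted p = 0.0072).

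Placing the contradictory libraries by genotype left 0 called for p53 TM against wild type p53 at 6 h, against p53 O6-meG at 6 h and 24 h, and over time against either control. Of all 20875 genes tested with that placement, 16 were called for p53 TM against wild type p53 at 6 h. Against p53 O6-meG 0 were called at 6 h and 1356 at 24 h. Over time 1 was called against pGFP and 14 against wild type p53. A 2-fold limit left 0 for p53 TM against wild type p53 at 24 h, 1 and 0 against p53 O6-meG at 6 h and 24 h, 0 over time with pGFP, and 1 for each difference over time of p53 TM. A fit of only the groups compared gave 0 for p53 TM against p53 O6-meG at 24 h and 5 over time with pGFP. Leaving out each library in turn gave 0 to 1 for p53 TM against p53 O6-meG at 24 h. Depth limits PURPL and the pGFP values of LNCTAM34A.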

Other observations

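The balance of the 2 transcripts of the miR-34a locus differed between the times. MIR34AHG held 17.6 to 20.7 counts for each count of LNCTAM34A in the 3 wild type p53 libraries at 6 h and 6.91 to 9.74 at 24 h. With p53 O6-meG the ratio was 17.5 to 18.8 at 6 h and 6.78 to 11.6 at 24 h, and with p53 TM 10.8 to 18.3 and 7.62 to 9.21. LNCTAM34A was higher at 24 h than at 6 h in every wild type library, and MIR34AHG lower. The ratio was read after values had been seen and was not tested, and reads over the 431 shared exon bases are of uncertain strand. The 2 libraries with contradictory labels were left out of these ratios.

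Of the 10 genes whose promoter window held a pair of p53 decamers, 5 passed the filter and were tested, among them LNCTAM34A, which passed only through libraries with functional p53. The other 4 had these log2 fold changes with wild type p53 against pGFP at 24 h: DDB2 2.04 (adjusted p = 1.7e-13 by edgeR), MCC 1.41 (adjusted p = 2.0e-08), PTCHD4 1.28 (adjusted p = 6.8e-04) and DYNC2H1 0.35 (adjusted p = 1.6e-04). The rest, PURPL included, were not tested in the main fit. These genes were found by the promoter search after values had been seen, and their count is not set against other genes.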
